A study of Homo sapiens with 192 samples.

Results

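The genes described here encode the channels and the transporter, other than the channel pannexin-1, through which cells are known or proposed to release ATP. They are the LRRC8 family members LRRC8A, LRRC8B, LRRC8C, LRRC8D and LRRC8E, the pannexin PANX2, the vesicular nucleotide transporter SLC17A9 and the connexins GJA1 and GJB2. These 9 genes were taken by their Ensembl identifiers from the 58243 genes counted, and 8 of them passed the filter on low counts that left 19387 genes for testing. GJA1 did not pass it. The samples were 4 human colorectal cancer (CRC) cell lines, HCT116, HT29, LS174T and LS513, cultured either in 2D or in 3D. Each of these 8 groups had 3 libraries of poly(A)-selected RNA, which gave 24 libraries. The labels name no drug, genotype or edit for any group and give neither the format nor the duration of the 3D cultures. Each line is a single established line, and nothing says that the libraries of a group came from separate cultures, so the p-values measure the spread between these libraries only.

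Extracellular ATP is a signal that cells read through P2X and P2Y receptors, and it reaches the outside of a cell by several routes. LRRC8 proteins assemble into the volume-regulated anion channel, which opens when a cell swells. LRRC8A is needed in every such channel, while LRRC8B, LRRC8C, LRRC8D and LRRC8E are partners that set which solutes pass. Connexins form gap junctions between cells and, when unpaired, hemichannels to the outside, pannexins form large-pore channels, and SLC17A9 loads ATP into vesicles that release it by exocytosis.

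LRRC8B, LRRC8C and LRRC8D lie next to each other on the plus strand of chromosome 1, within 411776 bases in GENCODE 29 on GRCh38. LRRC8B spans chr1:89524836-89597864, LRRC8C starts 35207 bases further on and spans chr1:89633072-89769903, and LRRC8D starts 51110 bases after that and spans chr1:89821014-89936611. The stretches before their starts are shown because these neighbours differed in which lines had most of their transcripts. That of GJA1 is shown because GJA1 was near 0 in all 4 lines. Each is the 180 bases from 250 to 71 bases before the first RefSeq start in GRCh38.p14, 5′ to 3′ on the strand of the gene, with each CG dinucleotide in capitals. They cover chr1:89524579-89524758 for LRRC8B, chr1:89632870-89633049 for LRRC8C, chr1:89820782-89820961 for LRRC8D and chr6:121435396-121435575 for GJA1, all on the plus strand.
LRRC8B: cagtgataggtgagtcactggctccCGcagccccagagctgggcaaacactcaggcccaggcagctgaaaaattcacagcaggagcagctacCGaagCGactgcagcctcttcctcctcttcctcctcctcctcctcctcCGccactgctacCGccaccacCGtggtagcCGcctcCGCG
LRRC8C: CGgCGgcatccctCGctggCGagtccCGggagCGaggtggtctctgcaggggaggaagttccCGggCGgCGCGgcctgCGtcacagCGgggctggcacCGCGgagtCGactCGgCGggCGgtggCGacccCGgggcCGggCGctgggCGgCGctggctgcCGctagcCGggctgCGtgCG
LRRC8D: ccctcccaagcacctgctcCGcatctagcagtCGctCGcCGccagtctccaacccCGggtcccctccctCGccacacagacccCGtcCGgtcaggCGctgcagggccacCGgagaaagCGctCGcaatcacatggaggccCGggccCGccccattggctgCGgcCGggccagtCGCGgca
GJA1: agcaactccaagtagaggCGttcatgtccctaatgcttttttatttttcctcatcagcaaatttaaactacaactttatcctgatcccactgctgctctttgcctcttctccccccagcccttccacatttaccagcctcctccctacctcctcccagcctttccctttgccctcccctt
The LRRC8C stretch held 28 CG dinucleotides, more than 97.0% of the 35116 promoters in the RefSeq table over the same window, where the median was 7. LRRC8D held 18 and LRRC8B held 9, above 80.9% and 55.7% of promoters. The GJA1 stretch held 1, and 10.2% of promoters held fewer. The letters GGGCGG, searched on both strands, were found 3 times before LRRC8C, once before LRRC8D and not before LRRC8B or GJA1, and 31.3% of all promoters held them in this window. A second RefSeq start of LRRC8D, not shown, had 14 CG dinucleotides in its stretch, above 70.0% of promoters, and GGGCGG 3 times. Methylation was not measured, so these letters describe the sequence only. Entries for 7 of the 9 genes were found in that table.

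The library totals ranged from 18723942 to 34277421 counts, so that 3 counts, taken as the floor of detection, correspond to between 0.0875 and 0.160 CPM, which are counts scaled to a common library total. Levels are given below as CPM after TMM scaling, which corrects for the composition of each library. The epithelial markers EPCAM, KRT8 and KRT18 were high in all 24 libraries, at 257 CPM or more, but VIL1 and KRT20 were as low as 0.133 and 0.604 CPM in the lowest library. Markers of other cell types were mixed. Of the fibroblast markers, COL3A1, DCN and LUM had at most 2 counts in a library and COL1A2 had none, but COL1A1 reached 21.8 CPM and was over the floor in 17 libraries, and PDGFRB, at up to 0.740 CPM, was over it in 18. Their sum was 10.2 to 22.1 CPM in HCT116 and at most 1.10 CPM in the other lines. Of the immune markers, PTPRC had at most 2 counts and CD3E none, while CD68 had 2.08 to 91.8 CPM and CD14 up to 15.1 CPM. The summed immune list ranged from 2.27 to 20.5 CPM over the 2D libraries and from 5.25 to 91.9 CPM over the 3D libraries, and that of the endothelial markers PECAM1, VWF, CDH5 and KDR was at most 2.38 CPM. The part of these lists in the results was not tested. Replicate 2 of LS174T grown in 3D stood apart from the others of its group, with a correlation to them of 0.987, the lowest of all libraries. In replicate 1 of HCT116 grown in 3D, 6.40% of counts were mitochondrial, against a median of 2.03%. In such bulk libraries, fewer cells that transcribe a gene and less RNA per cell cannot be told apart.

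Per kilobase of exons, GJB2 had the highest level of the 9 genes in each of the 4 lines. It averaged 52.0 ± 8.23 CPM per kb in LS513, 37.2 ± 1.69 in HT29, 18.1 ± 2.03 in LS174T and 15.3 ± 0.834 in HCT116 (SD, n = 6 libraries of both growth conditions). LRRC8A, the obligatory subunit of the volume-regulated channel, came next in LS513 at 21.3 ± 1.51 and in HCT116 at 8.402 ± 1.04 CPM per kb, where LRRC8E was within the spread between libraries of it (7.36 ± 1.22). In HT29 the second place was held by SLC17A9, at 21.5 ± 6.01 CPM per kb, within the spread of LRRC8A (17.8 ± 2.84), and in LS174T by LRRC8D, at 12.8 ± 2.39, which differed from LRRC8A there (11.4 ± 1.73) by less than the spread between libraries. PANX2 and GJA1 stayed at or below 1.79 CPM per kb on average in every line. For comparison, the excluded channel PANX1 averaged 7.71 to 11.3 CPM per kb over the lines.

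**Figure D1:**
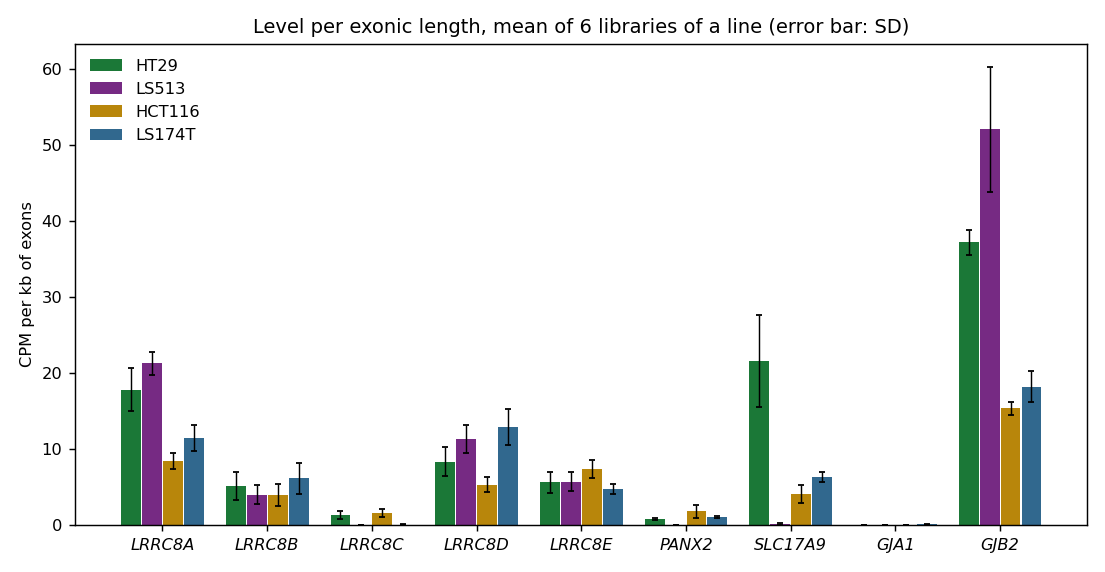
Mean level of each gene per kilobase of exons in CPM per kb (vertical axis, linear from 0), one bar per cell line, with the SD over the 6 libraries of that line as error bar. GJB2 is the tallest bar of each line, SLC17A9 reaches 21.5 CPM per kb in HT29 and 0.129 in LS513, and GJA1 lies at or under 0.0636 everywhere.

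LRRC8A was highest in LS513 and HT29 and lower in LS174T and HCT116. Over both growth conditions its level ranged from 81.7 to 116 CPM in HT29, from 101 to 123 CPM in LS513, from 44.1 to 71.4 CPM in LS174T and from 38.6 to 52.4 CPM in HCT116. The log2 difference between LS513 and HCT116 was 1.34 ± 0.08 (SE, adjusted p = 2.69e-13) in edgeR's quasi-likelihood test, whose p-values were adjusted over the 19387 genes by the Benjamini-Hochberg method here and below. The smallest of the 6 differences between lines, -0.26 ± 0.08 for HT29 against LS513, also passed the test (adjusted p = 0.00525). This difference is averaged over growth. In 2D the lines overlapped, with means of 104 CPM in HT29 and 105 CPM in LS513, and in 3D the means were 82.0 and 117 CPM.

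Growth in 3D went with less LRRC8A in HT29 and, over all 24 libraries, with no called change in the other lines. In HT29 the 2D libraries had 107, 116 and 89.6 CPM and the 3D libraries 82.2, 81.9 and 81.7 CPM, with all 3D values below all 2D values. The log2 fold change of 3D over 2D was -0.35 ± 0.11 (adjusted p = 0.0174), and it was -0.33 without replicate 1 of the 2D group and -0.26 without replicate 2, with adjusted p = 0.052 and 0.106. With all genes that had a count kept in the fit, the adjusted p was 0.0565. In LS513 the levels were 108, 106 and 101 CPM in 2D and 123, 116 and 113 CPM in 3D, apart in the opposite direction, and the log2 fold change of 0.16 ± 0.11 was not called (adjusted p = 0.338). In HCT116 it was 0.19 ± 0.11 (adjusted p = 0.238), or 0.08 without replicate 1 of the 3D group (adjusted p = 0.713). In LS174T it was -0.29 ± 0.11 (adjusted p = 0.0701), and this rested on single libraries. It was called without replicate 1 of the 3D group (-0.37, adjusted p = 0.0471) or replicate 3 (-0.35, adjusted p = 0.041), and was -0.15 without replicate 2 (adjusted p = 0.405), the library that stood apart. The test of the difference between these 4 growth effects gave an adjusted p of 0.0226 for LRRC8A, in a test that called 17.1% of all genes. Without replicate 2 of HT29 in 2D or replicate 1 of HCT116 in 3D the adjusted p of that test rose above 0.05, up to 0.0755.

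Of the partner subunits, only LRRC8B was called lower in all 4 lines when cells were grown in 3D. The means of LRRC8D were also lower in 3D in all 4 lines, but were called in HT29 and HCT116 only. For LRRC8B, HT29 had 52.1, 56.3 and 57.6 CPM in 2D and 23.2, 31.6 and 29.6 CPM in 3D. In LS513 the 2D libraries had 40.4, 42.2 and 40.01 CPM and the 3D libraries 21.5, 19.7 and 32.4 CPM. HCT116 had 47.1, 47.4 and 30.4 CPM in 2D and 19.7, 23.4 and 25.1 CPM in 3D. The groups of each of these lines were apart, and replicate 3 of LS513 in 3D and replicate 3 of HCT116 in 2D lay nearest to the other group. LS174T had 57.6, 63.2 and 66.9 CPM in 2D and 38.7, 22.8 and 52.8 CPM in 3D, also apart but with a wide 3D group whose lowest value was replicate 2. The log2 fold change was -0.98 ± 0.22 in HT29 (adjusted p = 0.00113), -0.87 ± 0.22 in HCT116 (adjusted p = 0.00439), -0.74 ± 0.22 in LS513 (adjusted p = 0.0163) and -0.71 ± 0.22 in LS174T (adjusted p = 0.0214). Of all genes tested, 2.46% were called lower in all 4 lines. The growth effects of LRRC8B were not shown to differ between lines (adjusted p = 0.904 for the interaction).

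The call for LRRC8B was not equally firm in each line. In HT29 and HCT116 it held without any single library. In LS174T the log2 fold change was -0.44 without replicate 2 of the 3D group (adjusted p = 0.143), -0.71 without replicate 2 of the 2D group (adjusted p = 0.0543) and -0.66 without replicate 3 of the 2D group (adjusted p = 0.0715), and the fit of the 6 LS174T libraries alone gave an adjusted p of 0.116. In LS513 it was -0.71 without replicate 2 of the 2D group (adjusted p = 0.0523), and -0.65 and -0.60 without replicates 1 and 2 of the 3D group (adjusted p = 0.0822 and 0.103). Between lines, the means of LRRC8B lay between 32.2 and 50.3 CPM, and 3 of the 6 pairs of lines were called. With all genes that had a count kept in the fit, HT29 against LS513 and HT29 against LS174T were called too (adjusted p = 0.00313 and 0.00319).

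LRRC8C, whose start lies 35207 bases from the end of LRRC8B, had its highest levels in HT29 and HCT116. It was low, though over the floor in every library, in LS174T and near the floor in LS513. HT29 had 2501 counts over its 6 libraries and HCT116 had 3504, whereas LS513 had 22, with 1 to 6 counts in a library, and LS174T had 106, with 8 to 26. Scaled to library totals, this was 125 times more in HT29 than in LS513 (95% interval 82.5 to 200.1, counting error only) and 164 times more in HCT116 than in LS513 (108 to 262). Against LS174T the ratios were 25.2 for HT29 (20.8 to 30.9) and 33.1 for HCT116 (27.2 to 40.5). HT29 and HCT116 were not called different from each other (log2 difference -0.24 ± 0.13, adjusted p = 0.0992). LS174T was above LS513 by 2.21 ± 0.32 on the log2 scale (adjusted p = 1.62e-06), on the low counts given above.

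In HT29 and HCT116, the lines with most of it, LRRC8C fell in 3D. HT29 had 19.1, 20.0 and 23.0 CPM in 2D and 9.98, 9.37 and 12.4 CPM in 3D, and HCT116 had 25.1, 26.0 and 18.8 CPM in 2D and 13.9, 11.9 and 13.4 CPM in 3D. All 3D values lay below all 2D values of the same line. The log2 fold changes were -0.96 ± 0.19 in HT29 (adjusted p = 0.00029) and -0.83 ± 0.18 in HCT116 (adjusted p = 0.00158), and both calls held without any single library. In LS174T the log2 fold change was -0.08 ± 0.32 (adjusted p = 0.906). No fold is given for LS513, with 15 counts in 2D and 7 in 3D in all.

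LRRC8D, the partner that favours the passage of larger organic solutes, was highest in LS174T and LS513 and lowest in HCT116. Its line means were 62.3 ± 11.6 CPM in LS174T, 54.6 ± 8.92 in LS513, 40.5 ± 8.96 in HT29 and 25.7 ± 4.88 in HCT116 (SD, n = 6), and the first 2 of these were not called different (log2 difference of LS513 against LS174T -0.19 ± 0.10, adjusted p = 0.0902). It fell in HT29, where the 2D libraries had 47.4, 49.3 and 48.9 CPM and the 3D libraries 33.1, 29.9 and 34.2 CPM, by 0.58 ± 0.14 on the log2 scale (adjusted p = 0.00243). It also fell in HCT116, from 32.3, 31.3 and 24.8 CPM to 21.4, 22.7 and 21.6 CPM (-0.43 ± 0.14, adjusted p = 0.0289). The groups did not overlap in either line. The HCT116 call held without replicate 3 of the 2D group and was lost without any other single library, with adjusted p between 0.0562 and 0.127. LRRC8D was not called in LS513 (-0.34 ± 0.14, adjusted p = 0.0814) or LS174T (-0.29 ± 0.14, adjusted p = 0.139), where the means were also lower in 3D. Without replicate 3 of their 3D groups these became -0.49 (adjusted p = 0.0177) and -0.47 (adjusted p = 0.0152), and without replicate 2 of the same groups they were -0.25 (adjusted p = 0.333) and -0.09 (adjusted p = 0.688). The difference between lines was not called (adjusted p = 0.687).

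LRRC8E moved the other way and rose in 3D in 3 of the 4 lines. In HT29 it had 18.004, 19.5 and 19.6 CPM in 2D and 28.99, 30.9 and 28.0 CPM in 3D, a log2 fold change of 0.62 ± 0.12 (adjusted p = 2.23e-04). LS513 had 19.5, 19.3 and 22.1 CPM in 2D and 30.7, 30.5 and 25.9 CPM in 3D (0.52 ± 0.12, adjusted p = 0.00224). HCT116 had 27.4, 24.8 and 29.5 CPM in 2D and 37.4, 36.2 and 35.8 CPM in 3D (0.42 ± 0.12, adjusted p = 0.00832). In these lines every 3D library was above every 2D library, and 8.38% of all genes were called higher in at least 3 lines. The HCT116 call was lost without replicate 2 of the 2D group (0.36, adjusted p = 0.054). In LS174T the levels were 22.5, 18.5 and 17.95 CPM in 2D and 19.9, 25.5 and 18.7 CPM in 3D, which overlapped, and the log2 fold change was 0.12 ± 0.12 (adjusted p = 0.485). The highest of those 3D values was replicate 2, without which the log2 fold change was -0.01. The growth effects of LRRC8E were not called different between lines (adjusted p = 0.13), but they were without that library (adjusted p = 0.0105). Of the exonic bases of LRRC8E, 74.3% are shared with AC010336.1 on the opposite strand, which had 3 to 22 counts in a library against 357 to 1125 for LRRC8E. The libraries were strand specific, and the strand setting of the counting is not given in the sources used here.

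**Figure D2:**
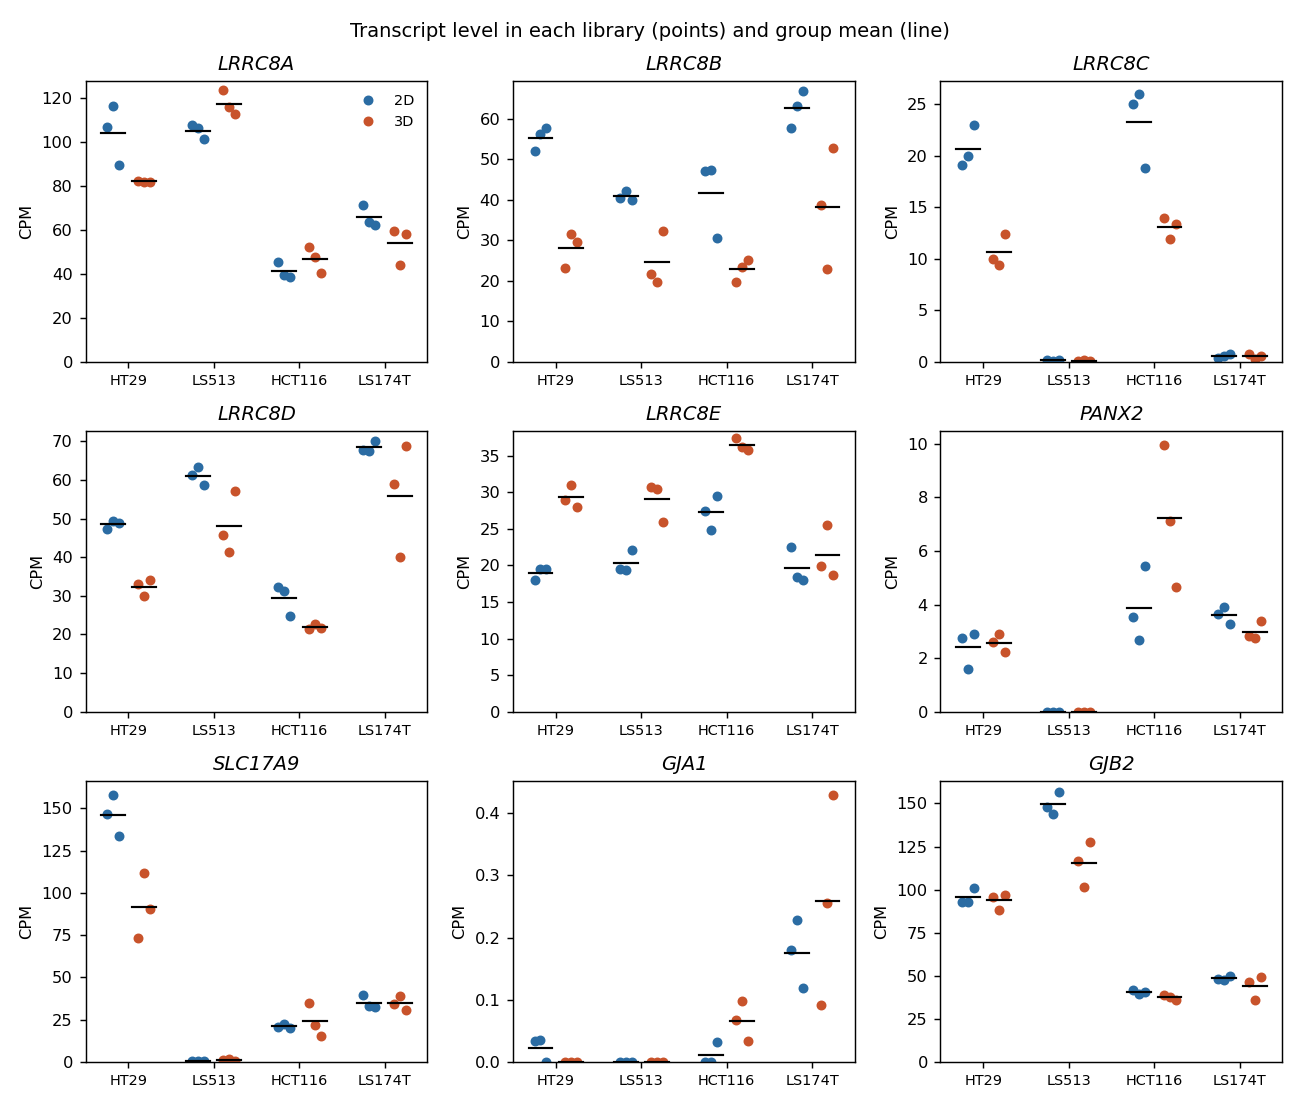
Level of each of the 9 genes in every library in CPM (linear axes from 0, one scale per gene), with 2D libraries in blue and 3D libraries in orange by cell line, and the mean of each group of 3 as a black line. LRRC8B points of 3D lie below those of 2D in all 4 lines, LRRC8E points lie above in HT29, LS513 and HCT116, LRRC8C and SLC17A9 are near 0 in LS513, and the GJA1 axis ends below 0.5 CPM.

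Because the partners moved in different directions, the make-up of the LRRC8 transcripts differed between growth conditions. The counts of each subunit per exonic base were expressed as a percentage of the sum over all 5 in each library. LRRC8E made up 10.3% ± 0.703 in 2D and 20.2% ± 1.07 in 3D in HT29, 11.1% ± 1.06 and 16.0% ± 1.92 in LS513, and 23.3% ± 3.85 and 32.7% ± 0.746 in HCT116 (SD, n = 3), with no overlap in these lines. In LS174T it made up 11.6% ± 1.25 and 16.4% ± 5.98, and the groups overlapped, with 23.2% in replicate 2 of the 3D group. The 3D minus 2D difference in the share of LRRC8B was -5.54 points in HT29, -7.64 in HCT116, -4.69 in LS513 and -5.24 in LS174T, and the groups overlapped in LS174T only.

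The share of LRRC8A itself overlapped between growth conditions in HT29 and LS174T, and its 3D values were above its 2D values in LS513 and HCT116. It was 46.4% ± 3.75 in 2D and 46.9% ± 0.810 in 3D in HT29 (p = 1 in a two-sided exact permutation test) and 32.3% ± 1.78 and 32.8% ± 1.94 in LS174T (p = 0.8, exact permutation test). It was 47.4% ± 0.757 in 2D and 53.4% ± 3.16 in 3D in LS513, and 28.8% ± 1.44 and 34.6% ± 3.13 in HCT116, with no overlap between groups in either. The exact permutation test gave p = 0.1 for both, which is the smallest that 3 against 3 libraries allow. In HT29, LS513 and HCT116, LRRC8A was the largest of the 5 shares on average in both growth conditions. In HCT116 the LRRC8E share was near it in 3D, and in replicate 3 of that group LRRC8E was larger (33.6% against 31.3%). In LS174T, LRRC8D was larger on average, at 36.3% in 2D and 36.3% in 3D. The LRRC8C exons span 11724 bases when all annotated isoforms are merged and 7218 in the longest transcript, so its small share depends on the length used. LRRC8C and LRRC8D also share 2.77% and 6.78% of their exonic bases with the same-strand gene AC093423.3, which had 71 to 287 counts in a library.

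**Figure D3:**
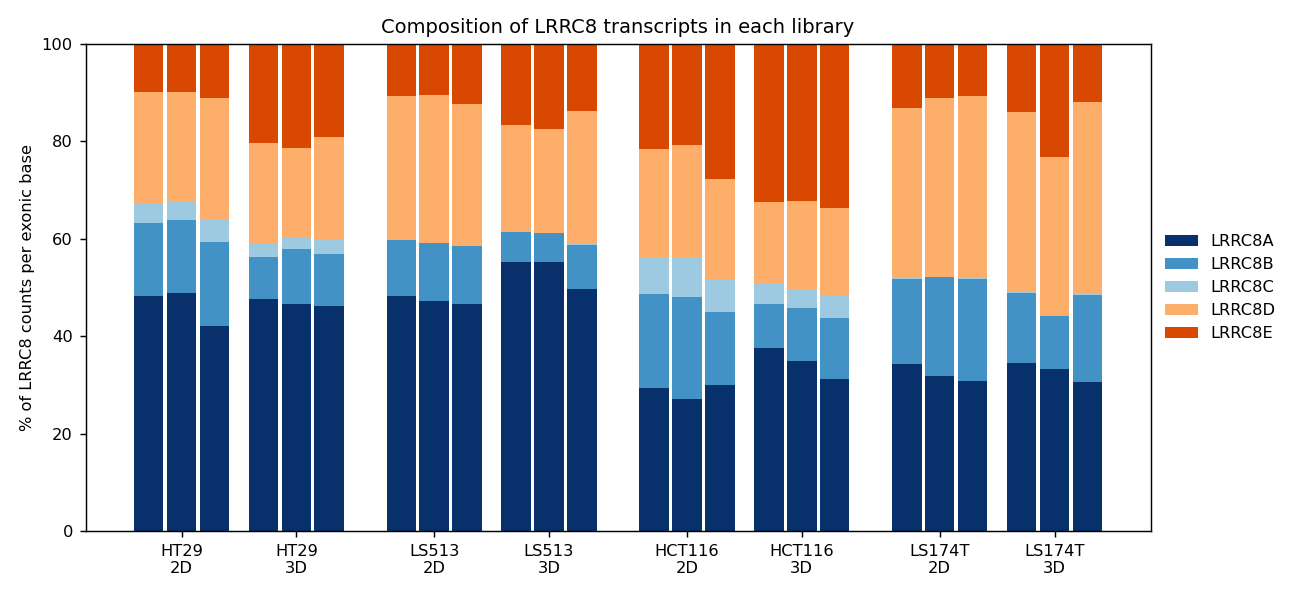
Share of each LRRC8 subunit in the summed LRRC8 counts per exonic base, in percent, with one stacked bar per library and the 3 libraries of a group side by side. The LRRC8E segment averages 10.3% in 2D and 20.2% in 3D in HT29, LRRC8C is visible in HT29 and HCT116 only, and replicate 2 of LS174T in 3D has an LRRC8E share of 23.2%.

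With the line means removed, LRRC8B and LRRC8D varied together over the 24 libraries (Pearson r = 0.958 of log2 CPM) and both ran opposite to LRRC8E (r = -0.887 and -0.903). LRRC8B and LRRC8C had r = 0.713. These values are descriptions: the libraries share 4 lines and the growth contrast, and no test was made of them.

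PANX2 was at 0 counts in all 6 libraries of LS513 and at a low level in the other lines. It had 46 to 86 counts in a library of HT29, 75 to 137 in LS174T and 93 to 300 in HCT116. A floor of 3 counts over the 6 LS513 libraries together is 0.0158 CPM, lower than the floor of a single library. PANX2 was 150 times this pooled floor in HT29, 356 times in HCT116 and 222 times in LS174T. These are not strict lower bounds, since 0 counts have a 95% upper limit of 3.69 counts. The log2 difference of HT29 against HCT116 was -1.097 ± 0.20 (adjusted p = 5.69e-05), and HCT116 was above LS174T by 0.69 ± 0.19 on that scale (adjusted p = 0.00331).

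In HCT116, PANX2 had 3.53, 2.67 and 5.45 CPM in 2D and 9.97, 7.12 and 4.65 CPM in 3D. These groups overlapped, although the log2 fold change of 0.90 ± 0.27 was called (adjusted p = 0.017). The highest value belonged to replicate 1 in 3D, the library with 6.40% mitochondrial counts, and without it the log2 fold change was 0.59 (adjusted p = 0.132). The call was also lost without replicate 1 or 2 of the 2D group (0.84 and 0.69, adjusted p = 0.0705 and 0.0999), and the fit of the 6 HCT116 libraries alone gave an adjusted p of 0.0612. The log2 fold change was 0.11 ± 0.30 in HT29 (adjusted p = 0.823) and -0.28 ± 0.28 in LS174T (adjusted p = 0.51), and the growth effects were not called different between lines (adjusted p = 0.162). That call depended on the fit, since it was made with all genes that had a count (adjusted p = 0.028) and without replicate 3 of HCT116 in 2D or in 3D (lowest adjusted p = 0.0464).

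SLC17A9, the transporter that fills secretory vesicles with ATP, differed widely between lines. HT29 had between 73.1 and 158 CPM, LS174T between 30.9 and 39.6, HCT116 between 15.4 and 35.0, and LS513 between 0.322 and 1.42 CPM, or 10 to 40 counts in a library. Its counts were 171 times higher in HT29 than in LS513 after scaling to library totals (95% interval 144 to 206, counting error only), 55.8 times higher in LS174T (46.8 to 67.2) and 35.1 times higher in HCT116 (29.4 to 42.3). All 6 pairs of lines were called for SLC17A9, and the smallest log2 difference, of HCT116 against LS174T, was -0.63 ± 0.14 (adjusted p = 3.4e-04).

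The growth effect on SLC17A9 went in opposite directions in HT29 and LS513. In HT29 the 2D libraries had 147, 158 and 133 CPM and the 3D libraries 73.1, 112 and 90.3 CPM, with no overlap, and the log2 fold change was -0.67 ± 0.20 (adjusted p = 0.00887). Without replicate 1 in 3D the adjusted p was 0.0625. In LS513 it rose from 0.322, 0.332 and 0.507 CPM to 0.951, 1.42 and 0.728 CPM (1.41 ± 0.42, adjusted p = 0.0173), which is 37 counts in 2D and 88 in 3D over 3 libraries each. That call was lost without replicate 1 or 2 in 2D or replicate 2 in 3D, with adjusted p of 0.0639, 0.0668 and 0.129. In HCT116 the values were 20.8, 22.1 and 19.8 CPM in 2D and 35.0, 21.9 and 15.4 CPM in 3D, so the 3D group spread around the 2D group, and the log2 fold change of 0.20 ± 0.20 (adjusted p = 0.487) was -0.18 without replicate 1 in 3D. In LS174T it was -0.02 ± 0.20 (adjusted p = 0.993). The test of the difference between lines gave an adjusted p of 0.00958, and it stayed between 9.92e-04 and 0.0291 when single libraries were left out.

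Of the connexins, GJA1 was close to absent at this depth. It had 0 counts in the 6 libraries of LS513, 2 counts in all of HT29, 7 in all of HCT116 and 42 in all of LS174T, where a library had 3 to 14. Over the 3 libraries of a group together, 3 counts correspond to 0.0313 CPM in LS513 2D and 0.0320 CPM in LS513 3D. The 95% upper limits for the 0 counts there are 0.0385 CPM in 2D and 0.0393 CPM in 3D (counting error only). LS174T was the line with most GJA1, and its growth groups overlapped at 0.179, 0.227 and 0.118 CPM in 2D and 0.092, 0.255 and 0.430 CPM in 3D.

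GJB2, the other connexin, was abundant in all 4 lines. LS513 had 148, 144 and 157 CPM in 2D and 117, 101 and 128 CPM in 3D, and HT29 had 92.6, 93.0 and 101 CPM in 2D and 95.7, 88.3 and 97.0 CPM in 3D. LS174T lay between 35.9 and 49.9 CPM and HCT116 between 35.9 and 41.8 CPM over both growth conditions. All 6 pairs of lines were called, from a log2 difference of 1.75 ± 0.07 for LS513 against HCT116 (adjusted p = 1.01e-16) to -0.24 ± 0.07 for HCT116 against LS174T (adjusted p = 0.00308). With growth, GJB2 fell in LS513, where the groups were apart (log2 fold change -0.38 ± 0.10, adjusted p = 0.00656). Without replicate 2 in 3D this was -0.29 (adjusted p = 0.0621). The log2 fold change was -0.03 ± 0.10 in HT29 (adjusted p = 0.882), -0.12 ± 0.10 in HCT116 (adjusted p = 0.393) and -0.14 ± 0.10 in LS174T (adjusted p = 0.305). The difference between lines was not called (adjusted p = 0.268), but without replicate 2 of LS174T in 3D, where the log2 fold change became -0.01, it was (adjusted p = 0.029).

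Counted together, 6 of the 8 tested members were called between growth conditions in HT29, where 40.7% of all genes were called (21.1% higher and 19.6% lower in 3D). LRRC8A, LRRC8B, LRRC8C, LRRC8D and SLC17A9 fell there and LRRC8E rose. In LS513, 4 were called, with LRRC8B and GJB2 lower and LRRC8E and SLC17A9 higher (23.6% of all genes, 13.7% higher and 9.9% lower). In HCT116, 5 were called, with LRRC8B, LRRC8C and LRRC8D lower and LRRC8E and PANX2 higher (29.1% of all genes, 16.8% higher and 12.3% lower). In LS174T only LRRC8B was called, and it fell (22.2% of all genes, 13.1% higher and 9.15% lower). When the log2 fold change also had to lie below -0.5 or above 1.5, 4 members passed in HT29 (17.4% of all genes), 2 in HCT116 (9.28%), 1 in LS513 (8.03%) and 1 in LS174T (7.26%). PANX1, for comparison, was called in none of the lines, with log2 fold changes of -0.26 ± 0.14 in HT29, -0.20 ± 0.14 in HCT116, -0.12 ± 0.14 in LS513 and -0.20 ± 0.15 in LS174T (adjusted p between 0.165 and 0.601). The median log2 fold change of the tested members was -0.46 in HT29, 0.03 in HCT116, -0.17 in LS513 and -0.21 in LS174T, while that of all genes was between 0 and 0.02. The members in LS513 include PANX2, which had no count there, and LRRC8C, which was near the floor.

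**Figure D4:**
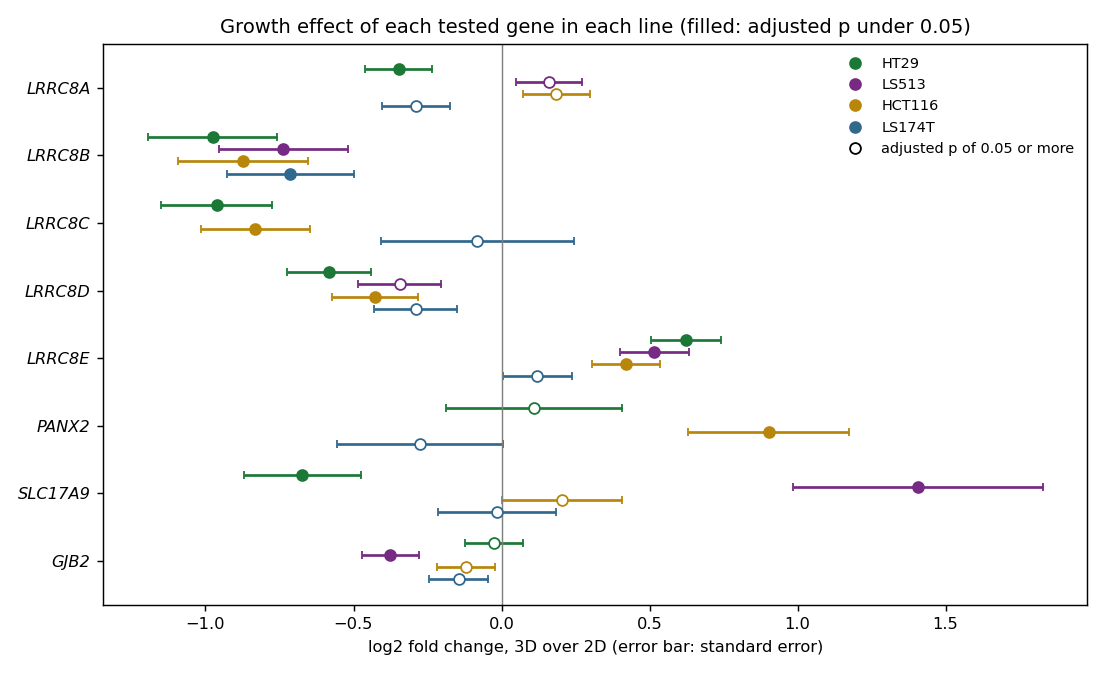
Log2 fold change of 3D over 2D for each tested gene and line with its standard error, from the edgeR fit of all 24 libraries, with filled points for an adjusted p under 0.05. LRRC8B is left of 0 and filled in all 4 lines, LRRC8E is right of 0 and filled in HT29, LS513 and HCT116, and SLC17A9 runs from -0.67 in HT29 to 1.41 in LS513. PANX2 and LRRC8C are not drawn for LS513, where counts were 0 or near the floor.

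Between lines, where cells of both growth conditions were averaged, 6 to 8 of the 8 members were called in each of the 6 pairs. The counts were 6 for HT29 against LS513, 7 for HT29 against HCT116, 6 for HT29 against LS174T, 7 for LS513 against HCT116, 7 for LS513 against LS174T and 8 for HCT116 against LS174T. Of all genes, 69.3%, 75.7%, 73.5%, 76.2%, 68.9% and 76% were called in the same pairs, so the lines differed in most genes and the members' counts are to be read against that.

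A list of 49 further genes, named the other ATP release genes here, was taken beside the members. It holds PANX1, the CALHM channels and other genes known or proposed to let ATP, pyrophosphate or related anions out of cells. The remaining connexins and the remaining SLC17 transporters were added as families of the members, not as genes each known to release ATP. SLC17A4, of that SLC17 family, was called higher in HT29, LS513 and LS174T. Of the 49 genes, 30 passed the filter on low counts. In HT29, 14 were called, 10 higher and 4 lower in 3D, and in LS513, 9 were called, 8 higher and 1 lower. In HCT116, 8 were called, 5 higher and 3 lower, and in LS174T, 6 were called, 4 higher and 2 lower. Beside the shares of all genes given above, these are 46.7%, 30%, 26.7% and 20% of the tested list genes. Some of the genes called higher had few counts. The most in a library was 2 for CALHM3 in LS174T and 4 in LS513. It was 8 for SLC17A4 in HT29 and 7 in LS174T, and 13 for GJC3 in HT29. The tested list genes also include some with no count in a line, such as GJB6 in LS513 and HCT116, which lowers these shares.

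The 2 list genes with the smallest growth p in HT29, in LS513 and in LS174T were taken as examples. In HT29 the connexin GJB1 rose, with 7.72 ± 1.77 CPM in 2D and 44.2 ± 4.83 CPM in 3D (log2 fold change 2.52 ± 0.20, adjusted p = 1.03e-08) and the chloride channel CFTR from 40.7 ± 12.1 to 110.0 ± 13.7 CPM (1.44 ± 0.16, adjusted p = 1.04e-06). GJB1 was also called higher in LS513 (0.78 ± 0.20, adjusted p = 0.00606) and LS174T (0.78 ± 0.20, adjusted p = 0.00795). In HCT116 it had at most 1 count in a library and was not called. CFTR was called lower in LS513 (-0.47 ± 0.16, adjusted p = 0.0361) and was not called in LS174T or HCT116. In LS513 TTYH2, of the tweety family, rose from 0.243 ± 0.176 to 3.04 ± 0.503 CPM (3.64 ± 0.31, adjusted p = 1.49e-08). TTYH2 was also called higher in HT29 (2.28 ± 0.61, adjusted p = 0.00476), on at most 17 counts in a library. It was not called in HCT116 or LS174T. The calcium-activated chloride channel ANO1 rose in LS513, with 38.1 ± 8.75 CPM in 2D and 65.3 ± 2.99 CPM in 3D (0.78 ± 0.15, adjusted p = 4.43e-04) and fell in LS174T from 131 ± 16.2 to 74.9 ± 14.97 CPM (-0.81 ± 0.14, adjusted p = 3.88e-04). It also fell in HT29, from 505 ± 32.4 to 273 ± 36.7 CPM (-0.89 ± 0.14, adjusted p = 4.28e-05), and was not called in HCT116 (adjusted p = 1). ABCC6, a transporter needed for cellular ATP efflux in liver, rose in LS174T from 4.16 ± 0.380 to 8.43 ± 1.17 CPM (1.02 ± 0.20, adjusted p = 0.00119). ABCC6 was also called higher in HCT116 (0.90 ± 0.27, adjusted p = 0.0131) and, on at most 16 counts in a library, in HT29 (2.36 ± 0.57, adjusted p = 0.00232). It was not called in LS513 (adjusted p = 0.105). These values are SD over 3 libraries per group for the levels and SE for the fold changes. In the lines where a gene was picked the groups were apart, which the choice by smallest p in the same libraries made likely.

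The genes whose log2 CPM ran most like that of each member over the 24 libraries were ITPR3 (r = 0.977) and FURIN (0.971) for LRRC8A, SREK1 (0.961) and ATAD5 (0.954) for LRRC8B, SDR42E1 (0.986) and GPR158 (0.983) for LRRC8C, and KTN1 (0.982) and ZNF234 (0.981) for LRRC8D. For LRRC8E they were RING1 (0.935) and RUNDC3A (0.926), the latter with at most 0.898 CPM. They were RTL8A (0.987) and COL18A1 (0.987) for PANX2, CALB2 (0.981) and HK1 (0.978) for SLC17A9, and ERAP2 (0.983) and MECOM (0.983) for GJB2. The libraries fall into 4 lines, so a high r here mostly states that both genes rank the lines alike.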

How the data were processed

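RNA was measured in 24 libraries of 4 CRC cell lines by poly(A)-selected, strand-specific, single-read sequencing. The authors trimmed reads, aligned them with STAR, kept reads that aligned once and counted them per gene with HTSeq-count, and they deposited raw counts for each technical replicate without normalization. The submitters' processing notes name Trim Galore 0.4.1, HTSeq 0.5.3 and the build hg19, whereas the identifiers belong to an Ensembl annotation of GRCh38, so positions here come only from GENCODE 29 on GRCh38 and sequences from RefSeq. Poly(A) selection and the loss of reads that align more than once lower counts of RNA without a tail and of near-identical genes.

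The 8 technical replicates of a library were summed. For 1 library of HT29 grown in 3D, 7 were used and 1 was not analysed here. The chi-square of their counts, divided by its degrees of freedom, had a median over genes of 0.906 to 0.934, where counting error alone gives 0.907. Library totals of 18723942 to 34277421 counts set the floor of 3 counts. Intervals at 95% cover counting error only, since reads without molecular identifiers are not independent molecules.

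Groups came from the sample labels. In R 4.3.3, edgeR 4.0.16 was used with filterByExpr (19387 genes kept), TMM scaling and a quasi-likelihood model (robust) in which each of the 8 groups had its own coefficient over the 24 libraries. Growth within each line, the pairs of lines averaged over growth, and the interaction of line and growth were tested, with Benjamini-Hochberg adjustment and calls at 0.05. Shares of LRRC8 subunits used merged exon lengths and an exact permutation test over libraries (scipy 1.17.1). Correlations used log2 CPM with a prior count of 2. The fit was checked on simulated data.

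Of 11 pairs of libraries with equal replicate numbers in 2D and 3D of a line, none had deviations that correlated above 0.1 (r from -0.146 to 0.0938), so the numbers were not used as pairs. The alternatives were DESeq2 1.42.0 and its size factors, all genes with a count, 7 technical replicates per library, a replicate block, 1 line at a time, fold cutoffs of -0.5 and 1.5, the longest transcript as length, and leaving out each library. Named genes are the 9 members, PANX1, in each line the 2 genes of the ATP release list with the smallest growth p (those of HCT116 are not reported here), and for each tested member the 2 genes with the highest r, besides overlapping genes and markers. The members and lists were chosen with earlier results of these data known.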

Additional observations from a re-analysis of the deposited data

Results flagged for a closer look

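The growth effect of SLC17A9, which loads ATP into secretory vesicles, differed between the 4 lines (adjusted p = 0.00958 for the interaction of line and growth in edgeR). The log2 fold change of 3D over 2D was -0.67 ± 0.20 in HT29, 0.20 ± 0.20 in HCT116, 1.41 ± 0.42 in LS513 and -0.02 ± 0.20 in LS174T (SE, n = 3 libraries per group). The LS513 value rests on 37 counts in 2D and 88 in 3D. The growth effect of LRRC8A, the obligatory subunit of the volume-regulated anion channel, also differed between lines (adjusted p = 0.0226), at -0.35 ± 0.11 in HT29, 0.19 ± 0.11 in HCT116, 0.16 ± 0.11 in LS513 and -0.29 ± 0.11 in LS174T. The same test called 17.1% of all genes.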

How the results depend on the processing

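The counts of members called by growth rested on few libraries and on the threshold. With single libraries left out in turn they ranged from 5 to 6 in HT29, from 1 to 5 in LS513, from 2 to 5 in HCT116 and from 0 to 3 in LS174T. They were 2 and 1 without replicate 2 of LS513 in 2D or in 3D, 3, 2 and 3 without replicate 1 or 2 of HCT116 in 2D or replicate 1 in 3D, and 0 without replicate 2 or 3 of LS174T in 2D or replicate 2 in 3D. Without replicate 1 or 3 of LS174T in 3D they were 2 and 3. With the fold cutoffs of -0.5 and 1.5, 1 member was called in LS513 and 2 in HCT116, and with only the 6 libraries of LS174T 0 were called there. For the other ATP release genes the cutoffs gave 7 in HT29, 2 in LS513 and 3 in HCT116, the 6 libraries of LS174T alone gave 3, and single libraries left out gave 3 to 8 in LS174T, the lowest without replicate 1 in 2D.

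The number of members whose growth effect differed between lines ranged from 1 to 4 with single libraries left out. It was 1 without replicate 2 of HT29 in 2D or replicate 1 of HCT116 in 3D, and 4 without replicate 2 of LS174T in 3D. With a replicate block it was 0, where SLC17A9 and LRRC8A had adjusted p = 0.0662 and 0.0688, and 9 other ATP release genes were called in HT29. With that block SLC17A9 and LRRC8A in HT29 and LRRC8D in HCT116 were no longer called (adjusted p = 0.0684, 0.14 and 0.056). In HT29, replicate 2 of the 2D group and replicate 4 of the 3D group had no library with the same number in the other group. Each was alone in its block, so the HT29 growth effects in that fit rest on replicates 1 and 3 only. The labels do not say whether libraries with equal replicate numbers were matched. Their deviations correlated little, which cannot show that they were not, so whether this block is a matched design is not known.

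Values that changed sign were not called in any setting. GJB2 in HT29 was 0.0106 with the DESeq2 size factors, 0.011 with the DESeq2 test and 0.0216 with all genes that had a count, and ranged from -0.0524 to 0.0433 with single libraries left out. LRRC8E in HT29 against LS513 was 0.0035 with the size factors and 0.0033 with the DESeq2 test. LRRC8C in LS174T was 0.07 without technical replicate d and ranged from -0.37 to 0.22. PANX2 in HT29 was -0.0415 with the replicate block and ranged from -0.13 to 0.28. The ranges were -0.18 to 0.44 for SLC17A9 in HCT116, -0.102 to 0.0803 for SLC17A9 and -0.0126 to 0.231 for LRRC8E in LS174T, and -0.0844 to 0.109 for LRRC8B in LS513 against HCT116. The LRRC8A share differed between growth conditions by -1.70 to 1.70 points in HT29 and by -0.346 to 1.56 points in LS174T. LRRC8B in HT29 against LS513 was called with the DESeq2 size factors (adjusted p = 0.0378) and the DESeq2 test (0.0335). With all genes that had a count it was called too (adjusted p = 0.00313 in edgeR). That fit also called LRRC8B and PANX2 in HT29 against LS174T (adjusted p = 0.00319 and 0.0338). LRRC8E in HT29 against LS174T was no longer called there (adjusted p = 0.0709). The causes of these changes were not tested. Depth limits what can be said of LRRC8C, PANX2 and SLC17A9 in LS513 and of GJA1 in all lines.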
